A study of Mus musculus with 9 samples.

Results

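Gene expression in the mouse mid-foregut was compared between its latest and earliest sampled stage, 26-30 and 16-20 somites, using 6 of the 9 arrays of the study. All embryos were wild type, and the labels place 16-20 somites at embryonic day 8.5, 21-25 somites at 9.0 and 26-30 somites at 9.5. Each stage had 3 arrays, each of RNA from a pool of 5 to 10 foreguts cut out between the pharyngeal arches and the liver after the neural tube and heart had been taken off. The pool, with its array, is the replicate, so p-values measure the spread between pools. Each gene was read from its probe set with the highest mean, and 8675 of 12393 genes passed a filter on low signal and were tested. In 968 of them, 11.2% of the tested genes, all 3 arrays of 26-30 somites lay above all 3 of 16-20 somites, and these are called wholly above. In 882, or 10.2%, all 3 lay below, and these are called wholly below. Values are MAS5 signals, a linear intensity scale, and differences are 26-30 minus 16-20 somites on a log2(signal + 26.2) scale ± SE, which understates differences of dim genes.

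At the earlier stage the mid-foregut is a simple tube of endoderm wrapped in mesoderm. By the later stage signals between these layers, among them WNT, BMP, FGF, hedgehog and retinoic acid, have set aside the lung field in the ventral wall, and the first lung buds and the trachea begin to form. The cells keep dividing throughout, and dividing cells need ribosomes, mitochondria and proteasomes in steady supply.

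No gene passed a test over all genes. With Benjamini-Hochberg adjustment limma called 0 of the 8675 (0%) at 0.05, with 0.219 as the lowest adjusted value, whereas 967 were below 0.05 before adjustment. With array weights 731 genes were called, where the weights of 26-30 somites replicates 1, 2 and 3 were 3.38, 1.34 and 0.67. On 26-30 somites replicates 1 and 2 and 21-25 somites replicate 1 the brightest probe set read 27480 to 32584, and on the other 6 arrays 43792 to 61749. The former are called narrow-range arrays. Differences without the narrow-range arrays are given beside the results below and rest on 26-30 somites replicate 3 alone at the later stage. On 16-20 somites replicate 2, hepatic and cardiac genes were high. The ratio of 3′ to 5′ probe sets of beta-actin, a sign of RNA quality, was between 25.4 and 36.8 at 16-20 somites and 20.9, 22.0 and 32.5 at 26-30 somites, where the narrow-range arrays had the lower ratios. For GAPDH it was between 22.6 and 26.0 at 16-20 somites and 19.9, 16.0 and 40.9 at 26-30 somites. The highest GAPDH ratio of the 9 arrays was that of 26-30 somites replicate 3, on which the values without the narrow-range arrays rest. The number of arrays limits the precision throughout.

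Genes wholly apart were sorted into 54 lists by function and 14 lists of cell type markers, which share some members. A list holds 394 of the 968 genes wholly above (40.7%) and 372 of the 882 wholly below (42.2%), beside 36.0% of all tested genes. Components that transcribe genes, make, fold and degrade proteins or run mitochondria were, where they lay apart, more often lower than higher at 26-30 somites. Over 10 such lists together, 178 of 621 tested genes were wholly below (28.7%) and 23 wholly above, and the median difference was -0.27, beside 0.01 over all tested genes. Glycolysis and the citric acid cycle, with 4 of 43 wholly below (9.30%), were not among the 10. Regulators that lay apart were more often higher than lower, though not in every list: helix-loop-helix and ID factors had 5 above and 5 below of 40. Over 10 lists of transcription factors and chromatin proteins, 92 of 454 were wholly above (20.3%) and 24 below, with a median of 0.16. Over 9 lists of signalling genes the counts were 58 above (17.3%) and 20 below (5.97%) of 335, with a median of 0.12. Over 6 lists of cell surface and matrix genes they were 31 (13.2%) and 14 (5.96%) of 235, with a median of 0.04. Of all tested genes 11.2% were wholly above and 10.2% below, so the share of surface and matrix genes above was near that of all genes. These groups of lists were formed after the values were seen. Without the narrow-range arrays the medians were -0.16, 0.09, 0.07 and -0.00 in that order, so the machinery lists remained the farthest from the median of all genes. The part of the narrow-range arrays in these counts was not tested.

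**Figure D1:**
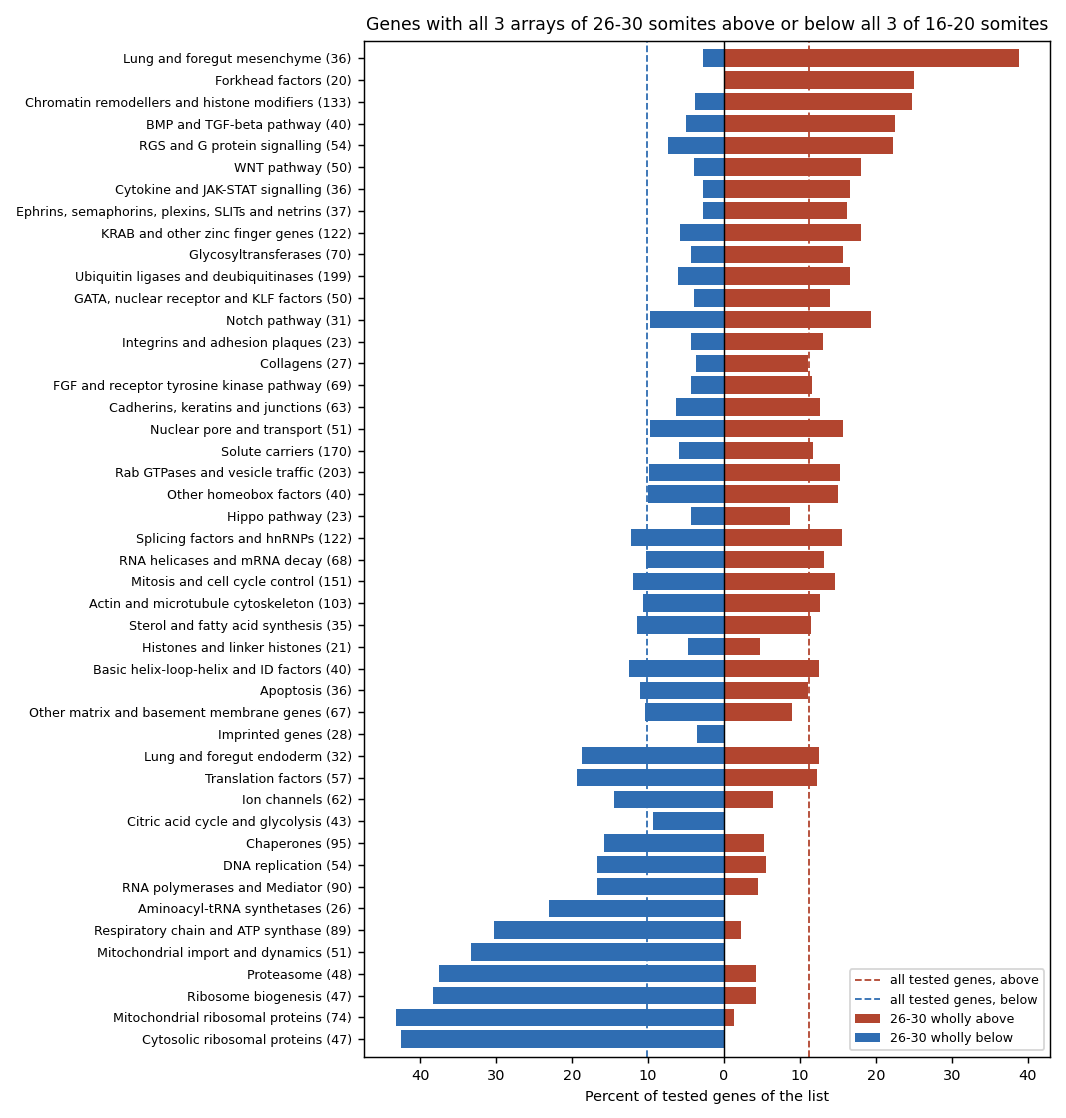
Percent of the tested genes of each functional list (number in brackets) that were wholly above (right) or wholly below (left) at 26-30 somites, for lists of at least 20 tested genes. Dashed lines mark the 11.2% and 10.2% of all tested genes, which foregut mesenchyme exceeds above and ribosomal, mitochondrial and proteasome lists exceed below.

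Promoters of the genes wholly below were searched for shared letters. The core of the site bound by ETS factors, CCGGAAG on either strand, was searched in RefSeq promoter windows of build GRCm38.p6, from 250 bases before to 50 after each start site. It stood in 219 of the 722 matched genes wholly below (30.3%), in 112 of 769 wholly above (14.6%) and in 1420 of 7049 tested genes (20.1%), and in 8.86% of all 32851 windows of the table. In the genes wholly below that belong to none of the 10 machinery lists the share was 26.4%. Outside those lists it was 14.3% in genes wholly above and 18.8% in all tested genes. Among all tested genes of a list it was 53.3% for mitochondrial import and dynamics, 48.8% for cytosolic ribosomal proteins and 46.0% for ribosome biogenesis. For the proteasome it was 37.5% and for mitochondrial ribosomal proteins 36.9%, against 29.2% for the respiratory chain, 28.8% for chaperones and 13.9% for chromatin genes. Members wholly below did not hold the letters more often than their whole list for import and dynamics (52.9%) and cytosolic ribosomal proteins (44.4%). Nor did they for ribosome biogenesis (42.9%) and mitochondrial ribosomal proteins (35.7%). They held them more often than their list for the respiratory chain (42.9%), the proteasome (41.2%) and chaperones (42.9%). The same held for RNA polymerases and Mediator (50% against 35.9%). On few genes it also held for translation factors (57.1% of 7 against 34.9%) and transfer RNA synthetases (80% of 5 against 38.9%). The shares of 3 other motifs lay closer together. The letters of the TATA box, TATAAA, stood in 8.17% of genes wholly below and 9.75% of those wholly above, beside 9.34% of tested genes. For the CCAAT box the shares were 41.3%, 46.0% and 43.0%, and for letters of the NRF1 site, GCATGCGC, 6.93%, 7.15% and 6.21%, each on either strand. A match describes the letters only and shows no binding.

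The stretches below, 5′ to 3′ on the gene's strand, run to 20 bases at most past the start site, and capitals mark the ETS core or its reverse complement. They are shown for genes wholly below that are described in the next paragraphs, from 6 different lists or complexes. All the genes shown hold the core, as 30.3% of the matched genes wholly below do, so they are examples and not typical of that group. Hspe1 lies at chr1:55088038-55088167 on the plus strand, Bms1 at chr6:118419397-118419555 on the minus strand, Rpl19 at chr11:98026641-98026729 on the plus strand, Psmd4 at chr3:95042595-95042769 on the minus strand, Polr2f at chr15:79141278-79141344 on the plus strand, Gtf3c6 at chr10:40257693-40257752 on the minus strand and Uxt at chrX:20961959-20962032 on the minus strand.
Hspe1: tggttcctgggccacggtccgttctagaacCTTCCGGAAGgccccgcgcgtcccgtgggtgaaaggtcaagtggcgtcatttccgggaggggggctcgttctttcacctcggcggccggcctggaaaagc
Bms1: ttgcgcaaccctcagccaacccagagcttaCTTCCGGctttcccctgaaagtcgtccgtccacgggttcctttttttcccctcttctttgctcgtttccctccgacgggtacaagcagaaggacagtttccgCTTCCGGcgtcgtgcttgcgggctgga
Rpl19: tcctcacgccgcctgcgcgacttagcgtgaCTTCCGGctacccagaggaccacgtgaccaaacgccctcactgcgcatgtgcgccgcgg
Psmd4: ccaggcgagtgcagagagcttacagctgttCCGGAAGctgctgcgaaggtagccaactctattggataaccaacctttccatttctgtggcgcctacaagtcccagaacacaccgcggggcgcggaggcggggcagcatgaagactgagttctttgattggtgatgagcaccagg
Polr2f: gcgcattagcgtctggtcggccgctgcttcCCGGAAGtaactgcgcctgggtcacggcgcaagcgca
Gtf3c6: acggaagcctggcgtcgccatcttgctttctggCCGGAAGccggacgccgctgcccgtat
Uxt: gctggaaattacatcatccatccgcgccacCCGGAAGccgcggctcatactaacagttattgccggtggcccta
In Hspe1 both orientations overlap in 1 run of capitals, and Bms1 holds the motif at 2 places.

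Mitochondrial ribosomal proteins, the subunits that translate the few proteins encoded in mitochondrial DNA, had 32 of 74 genes wholly below (43.2%) and 1 wholly above, with a median of -0.46. Mrps28, of the small subunit, read 705, 815 and 724 at 16-20 somites and 327, 304 and 417 at 26-30 somites. Its later arrays were all far under the earlier ones, a difference of -1.05 ± 0.25 (adjusted p = 0.285, limma). The dimmer Mrps6 read 191, 208 and 276 and then 102, 91.7 and 88.9, a difference of -1.05 ± 0.24. Mrps7 differed by -0.99 ± 0.26. The gene on the other side was Mrps2, with 1234, 1237 and 1459.7 against 1781, 2085 and 1559.8, and its groups were separated by a narrow margin. Its difference was 0.45 ± 0.22, and a second probe set gave -0.42. Without the narrow-range arrays the list's median was -0.24, that of Mrps28 -0.80 and that of Mrps6 -1.11.

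The list of mitochondrial import and dynamics had 17 of 51 genes wholly below and 0 wholly above. It holds the carriers and chaperones that bring proteins through both membranes, and also other mitochondrial genes such as Opa1, Tfam and Park7. Hspe1, the lid of the mitochondrial chaperonin that folds imported proteins, read 6109.8, 5733 and 6883 at 16-20 somites and 2405, 1524 and 3092 at 26-30 somites. No later array came near an earlier one, and the difference was -1.46 ± 0.30 (adjusted p = 0.254, limma). A second probe set of Hspe1 gave -0.70. Timm13, a small chaperone of the space between the membranes, read 2280.4, 3774 and 3065 and then 820.5, 726 and 1685, a difference of -1.55 ± 0.44 that was -0.81 without the narrow-range arrays. Park7, which guards cells against oxidative damage, differed by -1.16 ± 0.32, and by -0.49 without those arrays. The median of the list was -0.19 with all arrays and -0.22 without the narrow-range ones, so it moved little.

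The respiratory chain and ATP synthase, which turn the energy of electrons into ATP, had 27 of 89 genes wholly below and 2 wholly above. Ndufa8, a subunit of complex I, read 1599, 2993 and 2439 and then 817, 922 and 1407, a difference of -1.13 ± 0.37. Ndufb2, of the same complex, differed by -1.17 ± 0.39, and its second probe set by -1.42. Cox15, an enzyme that makes the heme of complex IV, stood against the list with 113, 85.5 and 54.5 at 16-20 and 594, 578 and 220.1 at 26-30 somites. All 3 later arrays of Cox15 exceeded the earlier ones, but the single wide-range one was far under the others, and the difference of 2.07 ± 0.74 was 1.19 without the narrow-range arrays. The list's median of -0.40 was -0.13 without them. Enzymes of glycolysis and the citric acid cycle had 4 of 43 genes wholly below, a share of 9.30% beside the 10.2% of all tested genes, and 0 wholly above, beside 11.2% of all tested genes.

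Ribosome biogenesis, the cleavage and assembly of ribosomal RNA in the nucleolus, had 18 of 47 genes wholly below and 2 wholly above. Bms1, a GTPase of early small-subunit assembly, read 553, 524 and 622 and then 303, 289.7 and 308. The later arrays lay within a few percent of each other, narrow-range or not, and the difference of -0.86 ± 0.28 (adjusted p = 0.349, limma) was -0.82 without the narrow-range arrays. Las1l, which processes the large-subunit precursor and is outside the list, read 989.6, 1134 and 1030 and then 442, 547 and 526, a difference of -1.02 ± 0.31, or -0.96 without them. Ebna1bp2, a nucleolar assembly factor, differed by -0.85 ± 0.24. Brix1, another such factor, differed by -0.79 ± 0.27, but its second probe set gave 0.92 and the mean of both turned the sign.

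Cytosolic ribosomal proteins had 20 of 47 genes wholly below and 0 wholly above, with a median of -0.55 that was -0.18 without the narrow-range arrays. Rpl19, of the large subunit, read 12143, 21015 and 16095 and then 7706, 6053 and 11311, a difference of -0.98 ± 0.31, or -0.50 without them. Among translation factors 11 of 57 were wholly below and 7 wholly above. Eef1d, part of the complex that recharges elongation factor 1, read 6889.9, 8118 and 9058 and then 3306, 2753 and 4542, a difference of -1.20 ± 0.30, but its further probe sets gave 0.26 and -0.53. Eif3k, a subunit of initiation factor 3, differed by -1.19 ± 0.35. Eef1a2, an elongation factor best known from muscle and neurons, lay on the other side, with 56.9, 29.2 and 84.9 and then 206, 267 and 164, a difference of 1.55 ± 0.37. Of the enzymes that charge transfer RNAs and their partners, 6 of 26 were wholly below and 0 above. Aimp1, a scaffold of the synthetase complex, read 2119.7, 2080 and 1941 and then 889, 716 and 1472, and was -0.47 without the narrow-range arrays against -1.04 ± 0.33 with them.

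The proteasome, the barrel-shaped protease that degrades ubiquitin-tagged proteins, had 18 of 48 genes wholly below and 2 wholly above. Psma4, of the outer ring of the core, read 2308, 2532 and 2758 at 16-20 somites and 1589, 1443 and 1386 at 26-30 somites. Its lowest later array was the wide-range one, and the difference of -0.77 ± 0.20 (adjusted p = 0.317, limma) was -0.85 without the narrow-range arrays. Psmd4, the ubiquitin receptor of the cap, read 2121, 3088 and 3461 and then 1579.8, 1314 and 1532, a difference of -0.93 ± 0.33, but a second probe set gave 0.03. Psmg4, an assembly chaperone of the core, differed by -0.78 ± 0.27. The median of the list was -0.34, and -0.25 without the narrow-range arrays.

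RNA polymerase subunits, general factors and Mediator had 15 of 90 genes wholly below and 4 wholly above, with a median of -0.06. Polr2f, a small subunit shared by the nuclear polymerases, read 1660.5, 1660.2 and 1535 and then 450.2, 454 and 1386. Only the narrow-range arrays were far lower, and the difference of -1.26 ± 0.42 was -0.22 without them, while a second probe set gave 1.00. Gtf3c6, of the factor that loads polymerase III, differed by -1.36 ± 0.42, or -0.46 without them. Among chaperones 15 of 95 were wholly below and 5 above. Pfdn5, of the prefoldin complex that hands actin and tubulin to their folding machine, differed by -1.57 ± 0.49, and its second probe set by -1.54. Uxt, a relative of prefoldin outside the chaperone list, read 316, 334 and 335 and then 158, 102 and 118, and its difference of -1.24 ± 0.30 was -1.30 without the narrow-range arrays.

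**Figure D2:**
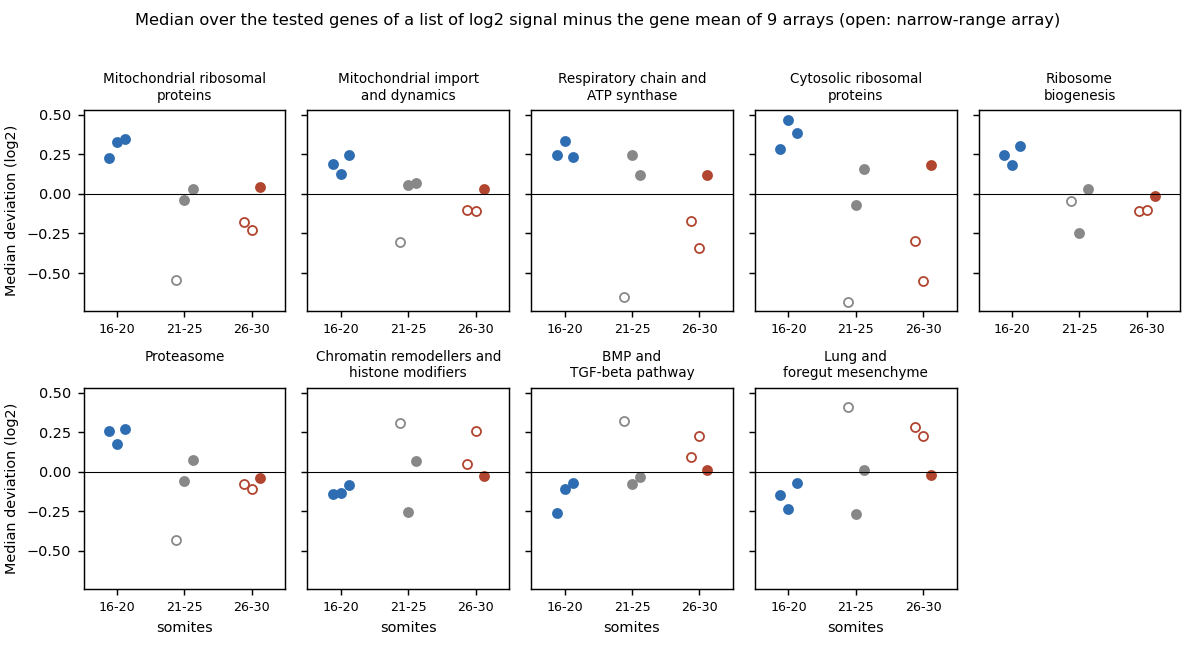
Median over the tested genes of 9 lists of log2 signal minus each gene's mean over 9 arrays, 1 point per array, by stage, with narrow-range arrays as open points. In the 6 lower lists every array of 26-30 somites lies below those of 16-20 somites and the wide-range array lies nearest to them, and in the 3 higher lists the order is turned.

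Each array can be read alone from the median over a list of log2 signal minus each gene's mean over 9 arrays. For mitochondrial ribosomal proteins the medians were 0.23, 0.33 and 0.35 at 16-20 somites and -0.18, -0.23 and 0.04 at 26-30 somites, and for the proteasome 0.26, 0.18 and 0.27 against -0.08, -0.11 and -0.04. The wide-range later array lay close to the narrow-range ones for the proteasome and well above them for mitochondrial ribosomal proteins. At 21-25 somites the narrow-range array stood apart from the other 2 of its own stage for mitochondrial ribosomal proteins and the proteasome. It read -0.54 against -0.04 and 0.03 for the former and -0.43 against -0.06 and 0.07 for the latter. For chromatin genes all 3 arrays were spread out, with the narrow-range one highest at 0.30 against -0.25 and 0.07. The narrow-range array was also the lowest of its stage for cytosolic ribosomal proteins, the respiratory chain, translation factors and the list of mitochondrial import and dynamics. It was not the lowest for ribosome biogenesis, at -0.05 against -0.25 and 0.03, nor for the synthetases of transfer RNA, RNA polymerases and chaperones. How much of the stage difference it accounts for was not tested.

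Among the genes that lay higher at 26-30 somites, genes of lung and foregut mesenchyme were the list of at least 20 tested genes with the highest share. Of 36 tested, 14 were wholly above (38.9%) and 1 wholly below, with a median of 0.39, or 0.26 without the narrow-range arrays. The list was drawn up with earlier results of these data known, so its rank is no independent support. General mesenchyme markers had 3 above and 3 below of 16, with a median of 0.12, or -0.10 without the narrow-range arrays. Zfpm2, a cofactor of GATA4 needed in heart, diaphragm and lung, read 122, 140.2 and 88.2 at 16-20 somites and 595, 389.9 and 256 at 26-30 somites. The later arrays were spread over a wide range but all exceeded the earlier ones, with a difference of 1.56 ± 0.42 (adjusted p = 0.317, limma), or 1.00 without the narrow-range arrays. Hoxb6, a homeobox gene of the trunk mesoderm, differed by 0.91 ± 0.35. Pdgfra, the receptor for platelet-derived growth factor on mesenchymal cells, read 1696, 1428 and 1045 and then 3127, 2846 and 1779, a difference of 0.87 ± 0.28 that was 0.38 without those arrays and -0.07 in a second probe set. Twist1, a helix-loop-helix factor of mesenchyme, was the one below, with 274, 292 and 223 against 119.9, 106 and 165. In a bulk sample more cells of a type and more RNA per cell cannot be told apart.

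Other transcription factors were spread over several families. Bcl11a, a zinc finger repressor of blood and nerve cells, read 165, 9.90 and 168 and then 724, 689 and 517, and the difference of 2.59 ± 0.54 (adjusted p = 0.254, limma) was 2.30 without the narrow-range arrays. The 9.90 came from 16-20 somites replicate 2, the array with high hepatic genes, without which the difference was 1.78. Msc, a helix-loop-helix repressor of muscle genes in the pharyngeal arches, was low on the same array, with 488, 88.0 and 674 and then 981, 1122 and 1362. Its wide-range later array was the highest, and the difference of 1.76 ± 0.52 was 0.96 without that earlier array. Satb1, which folds chromatin into loops, read 839, 534 and 696 and then 1296, 1986 and 1161, a difference of 1.06 ± 0.27. Six5, a homeobox factor, was dim at 13.6, 53.9 and 51.8 and then 127, 179 and 207, a difference of 1.63 ± 0.35 or 1.89 without the narrow-range arrays. Id4, an inhibitor of helix-loop-helix factors, differed by 1.01 ± 0.27, though by -0.02 in its second probe set, and Tcf4, one of their common partners, by 0.90 ± 0.24, with further probe sets at 1.76, 0.43 and 0.65. Eomes, a T-box factor of early endoderm, was likewise dim and differed by 1.11 ± 0.34.

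Forkhead factors had 5 of 20 genes wholly above and 0 below. Foxp1, expressed in lung and foregut epithelium, read 1742, 1565 and 1893 and then 2389, 2478 and 2815. The groups were narrow and apart, the difference was 0.56 ± 0.20, and it was 0.70 without the narrow-range arrays. Foxn2 differed by 0.99 ± 0.31, and Foxf2, a hedgehog target of the gut mesenchyme, by 0.77 ± 0.35. ETS factors, which bind the core searched above, had 4 of 14 wholly above and 0 below. Gabpa, the ETS factor known for binding promoters of mitochondrial and ribosomal genes, read 1057, 534 and 819 and then 1375, 1699.8 and 1134, a difference of 0.82 ± 0.33 or 0.11 in a second probe set, and Elf1 differed by 1.01 ± 0.41. Whether these levels bear on the genes with the core was not tested. Zinc finger genes of the KRAB and other kinds, many of which silence transposable elements, had 22 of 122 wholly above and 7 below. Zfp574 read 162, 120.1 and 142 and then 495, 352 and 271, a difference of 1.22 ± 0.35, and Zfp467 differed by 1.33 ± 0.34, with a second probe set at -0.28.

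Chromatin remodellers and histone modifiers had 33 of 133 genes wholly above (24.8%) and 5 below, with a median of 0.20, or 0.09 without the narrow-range arrays. Arid4b, a part of a histone deacetylase complex, read 645, 502 and 360.1 and then 1152, 1296 and 883, a difference of 1.12 ± 0.30 that a second probe set did not show, at -0.01. Bmi1, of the polycomb complex that keeps genes silent, read 1226, 559 and 815 and then 2092, 1778 and 1595, a difference of 1.11 ± 0.27, and its second probe set gave 0.59. Ehmt2, a histone H3 methyltransferase, was among those below, at -0.54 ± 0.27. Hmga2, a chromatin protein abundant in embryos, was bright at 8364, 4735 and 7755 and then 12930.4, 9677 and 14561, a difference of 0.85 ± 0.25. Ubiquitin ligases and deubiquitinases, which choose the proteins sent to the proteasome, had 33 of 199 genes wholly above and 12 below, the opposite side from the proteasome itself. Rnf115, a ligase that acts on membrane traffic, read 2749, 1222 and 1193 and then 4653, 3267 and 3972, a difference of 1.29 ± 0.35, or 0.27 in a second probe set. Ube2s, the enzyme that extends ubiquitin chains in mitosis, was lower, with 541, 619.5 and 921 and then 134, 345 and 278, a difference of -1.42 ± 0.40.

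**Figure D3:**
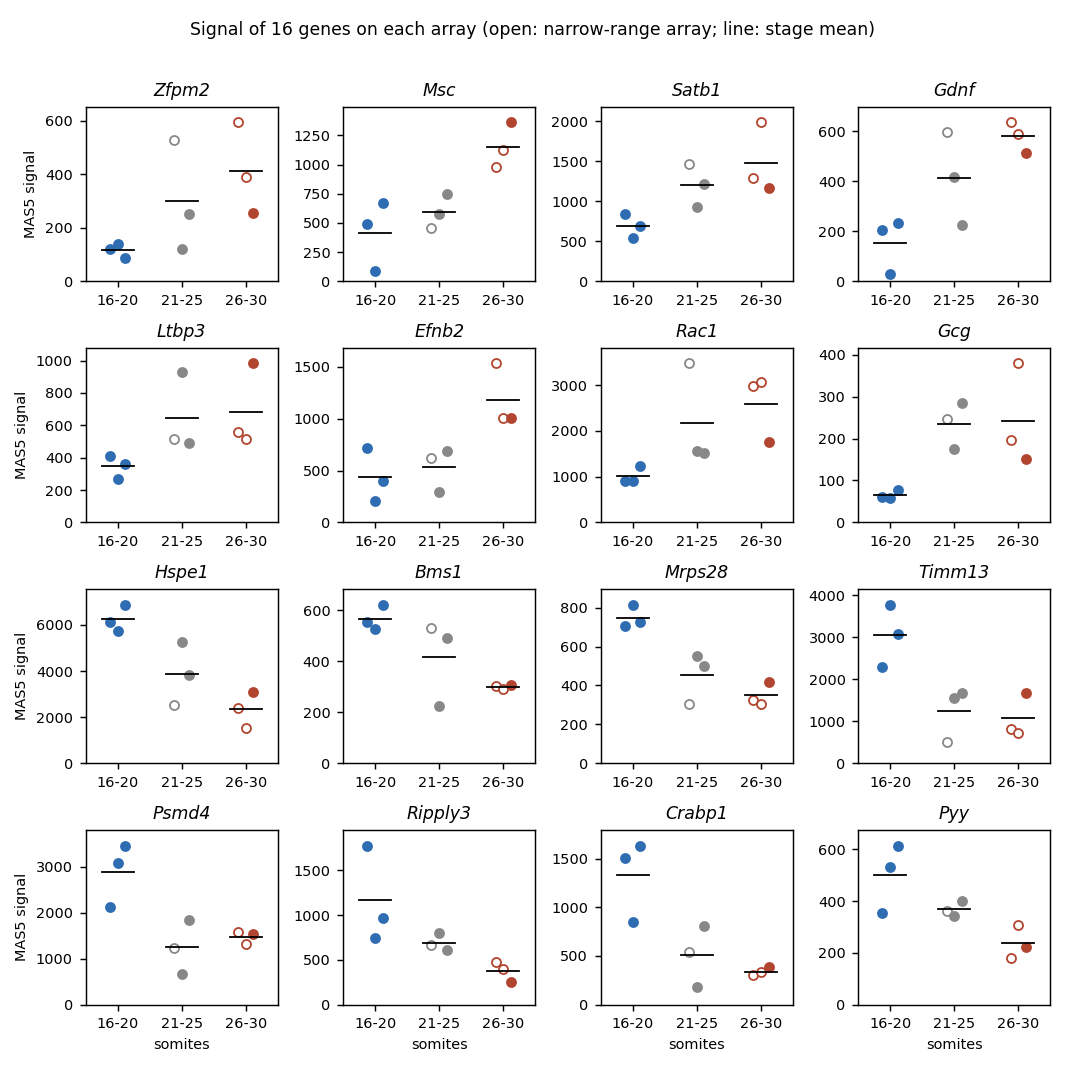
MAS5 signal of 16 genes on every array by stage, with lines at stage means and open points for the narrow-range arrays. The upper 8 genes were wholly above and the lower 8 wholly below at 26-30 somites, as for Hspe1, whose later arrays read 2405, 1524 and 3092 against 6109.8, 5733 and 6883.

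Signalling genes that lay wholly above included ligands, receptors and brakes. The hedgehog pathway, by which epithelial ligand instructs the gut mesenchyme, had 5 of 13 genes wholly above (38.5%) and 0 below. Of all tested genes 11.2% were wholly above. The list's median was 0.16, 1 of its genes was below 0.05 before adjustment in limma, and quantile normalization left 3 wholly above. Gas1, a coreceptor, read 1062, 1759.9 and 1447 and then 2348, 2079.9 and 1834, a difference of 0.57 ± 0.33 with the groups barely apart, and a second probe set gave -0.30. Hhip, a decoy receptor that the pathway itself turns on, read 158, 59.0 and 155 and then 199.9, 187 and 206, a difference of 0.66 ± 0.30, or 0.29 without 16-20 somites replicate 2. The WNT pathway had 9 wholly above and 2 below of 50. Wnt7b, a ligand of lung epithelium, read 259.9, 294 and 248 and then 424, 549 and 392, a difference of 0.70 ± 0.23 or 0.51 without the narrow-range arrays.

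The BMP and TGF-beta pathway had 9 of 40 genes wholly above and 2 below, with a median of 0.28, or 0.17 without the narrow-range arrays. Ltbp3, which anchors latent TGF-beta in the matrix, read 411, 271 and 361 and then 557, 516 and 982, and was highest on the wide-range array, with a difference of 0.89 ± 0.31 against 1.45 without the others. Smad1, which carries the BMP signal to the nucleus, read 729, 971 and 747 and then 1166, 1408 and 1071, a difference of 0.56 ± 0.24. Acvr1, a BMP receptor, differed by 0.71 ± 0.32, and by 0.08 in a second probe set. Both genes below were inhibitors: Bambi, a pseudoreceptor, read 663, 1248 and 792 and then 579, 541 and 526, a difference of -0.64 ± 0.24, and Grem1, a secreted antagonist, differed by -0.72 ± 0.25. Neither passed the adjusted test, with adjusted p = 0.375 and 0.363 in limma.

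In the FGF and receptor tyrosine kinase list 8 of 69 genes were wholly above, a share of 11.6% near the 11.2% of all tested genes. Gdnf, the ligand that guides enteric neural crest into the gut, read 203, 28.3 and 234 at 16-20 and 636, 589.5 and 515 at 26-30 somites. No later array overlapped an earlier one, and the difference of 2.03 ± 0.51 (adjusted p = 0.317, limma) was 1.87 without the narrow-range arrays and 1.31 without 16-20 somites replicate 2. Pdgfc, a ligand of Pdgfra, read 2306, 1267 and 3035 and then 4141, 4915 and 3831, a difference of 1.03 ± 0.32, and its second probe set gave 1.19. Dusp9, a phosphatase that switches off MAP kinases, was lower, with 1038, 1754 and 1083 and then 559, 650.1 and 611, a difference of -1.02 ± 0.26 or -1.01 without those arrays. The Notch list was divided, 6 above and 3 below of 31. Dll3, a Notch ligand that acts inside the cell, read 92.1, 101 and 108 and then 252, 298 and 201, a difference of 1.12 ± 0.34, while Psenen, a subunit of the protease that frees Notch, differed by -1.01 ± 0.45.

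Further genes of cell movement and signal reception lay higher. Rac1, which drives the actin front of moving cells, read 906, 897 and 1237 and then 2973, 3063 and 1753, a difference of 1.31 ± 0.34, but a second probe set gave -0.18. Srgap3, which turns Rac off downstream of SLIT, read 141, 200.5 and 102 and then 247, 241 and 306, a difference of 0.77 ± 0.27. G protein signalling had 12 wholly above and 4 below of 54. Adcy7, an adenylyl cyclase that makes cyclic AMP, read 286, 228 and 273 and then 778, 541 and 834, and its difference of 1.35 ± 0.29 was 1.58 without the narrow-range arrays. Of the cytokine list, Ghr, the growth hormone receptor, was bright at 3129, 2906 and 3238 and then 4875, 5393 and 4716, a difference of 0.69 ± 0.19 or 0.13 in a second probe set, and Ackr3, a scavenger of the chemokine CXCL12, differed by 0.74 ± 0.23.

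At the cell surface, guidance genes had 6 of 37 wholly above and 1 below. Efnb2, an ephrin that marks arteries and boundaries between tissues, read 722, 202 and 399.5 and then 1534, 1008 and 1008, a difference of 1.51 ± 0.42, its second probe set gave 0.76, and the first gave 1.07 without 16-20 somites replicate 2. Robo1, a SLIT receptor, differed by 0.99 ± 0.33, or 0.45 without the narrow-range arrays. Neural and immunoglobulin adhesion genes had 5 of 18 wholly above and 0 below. Pcdh18, a protocadherin, read 239.6, 244 and 253 and then 586, 598 and 454, a difference of 1.06 ± 0.29 that its second probe set, at -0.08, did not share. Itga8, the integrin chain known for epithelial branching in the kidney, differed by 0.64 ± 0.27. Collagens, with 3 of 27 wholly above (11.1%), and the other matrix genes, with 6 and 7 of 67, were near the background.

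Apoptosis and cell cycle genes lay on both sides. The apoptosis list had 4 wholly above and 4 below of 36, each 11.1%. Trp53inp1, a p53 target, read 593, 548 and 473 and then 1105, 1176 and 1042, a difference of 1.01 ± 0.23 or 0.93 without the narrow-range arrays. The caspases Casp2 and Casp9, proteases that start cell death, differed by 1.24 ± 0.31 and 1.03 ± 0.26, though a second probe set of Casp9 gave -0.29. Birc5, an inhibitor of apoptosis that also guides chromosomes in mitosis, was lower, with 1618, 1685 and 1719.5 and then 509.5, 757 and 978, a difference of -1.18 ± 0.26. Mitosis and cell cycle genes as a whole had 22 above and 18 below of 151. Ccng2, a cyclin of cells that leave the cycle, read 1399.8, 764 and 1328 and then 2054, 2651 and 2021, a difference of 0.97 ± 0.27. Replication genes leaned lower, with 9 of 54 below and 3 above. Rpa2, which coats single-stranded DNA, read 1322, 1866 and 2416 and then 1085, 939.8 and 1006, a difference of -0.83 ± 0.27 that was -0.83 without the narrow-range arrays.

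Hox genes, which set position along the body axis, had 5 of 15 wholly above and 0 below, and T-box factors 3 and 1 of 8. Tbx2, a repressor of the lung mesenchyme, read 159, 118 and 256 and then 311, 261 and 264, a difference of 0.63 ± 0.26. SOX factors had 2 of 12 wholly above, and both were the endothelial ones. Sox18 read 78.3, 23.8 and 108 and then 170.3, 232 and 112, a difference of 1.11 ± 0.42, and Sox7 differed by 0.73 ± 0.34. Other homeobox factors had 6 above and 4 below of 40, helix-loop-helix and ID factors 5 and 5 of 40, and GATA, nuclear receptor and KLF factors 7 and 2 of 50. Klf4, a zinc finger factor of epithelia, differed by 0.76 ± 0.28. The Hippo pathway had 2 above and 1 below of 23.

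RNA processing showed no single direction. Splicing factors had 19 wholly above and 15 below of 122. Core subunits were among those lower: Lsm4, of the ring on U6 RNA, read 2690.1, 4404 and 3472 and then 1051, 788 and 2145, a difference of -1.49 ± 0.48 or -0.68 without the narrow-range arrays, and Sf3b5 differed by -1.44 ± 0.56. Khdrbs1, an RNA-binding regulator of exon choice, lay higher, with 3201, 1739.5 and 2189.5 and then 5515, 5349.6 and 4206, a difference of 1.11 ± 0.32. RNA helicases and decay factors had 9 and 7 of 68, and nuclear pore and transport genes 8 and 5 of 51. Histones and their kin had 1 and 1 of 21, where the one above was Hmga2. Imprinted genes, many of them growth regulators, had 0 above and 1 below of 28, fewer than the background in both directions.

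Membrane traffic, the cytoskeleton and transport were likewise divided. Vesicle traffic genes had 31 wholly above and 20 below of 203, and cytoskeletal genes 13 and 11 of 103. Enah, which lengthens actin filaments at the cell edge, read 5716, 2204 and 3167 and then 9782, 9081 and 7368, a difference of 1.34 ± 0.33, but its further probe sets gave -0.46 and 0.22. Tagln, an actin-binding protein of early heart and smooth muscle, lay lower, with 195, 407 and 355 and then 113, 156 and 64.9, a difference of -1.33 ± 0.34 or -1.14 without 16-20 somites replicate 2. Tpm2, a tropomyosin, differed by -1.01 ± 0.36. Solute carriers had 20 above and 10 below of 170, and ion channels 4 and 9 of 62. Slc2a3, a glucose transporter, read 12372, 18638 and 11929.6 and then 7440.5, 7663 and 9628, a difference of -0.77 ± 0.24, and Slc6a9, a glycine transporter, differed by 0.92 ± 0.30. In sterol and fatty acid synthesis the counts were 4 and 4 of 35. Enzymes of 1 pathway, cholesterol synthesis, were split, with Cyp51 at 0.79 ± 0.29 and Sqle at 0.48 ± 0.21 against Pmvk at -0.85 ± 0.27 and Lss at -0.62 ± 0.30, although a second probe set of Lss gave 0.38. Glycosyltransferases had 11 above and 3 below of 70.

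Cadherins, keratins and junction genes had 8 wholly above and 4 below of 63, and the 4 below are made by epithelia. Krt18, a keratin of simple epithelia, read 2341, 5459 and 3108 and then 1642, 1393 and 1101, a difference of -1.31 ± 0.30 or -1.61 without the narrow-range arrays. Cldn4, F11r and Spint1 were the others, with differences of -0.33 ± 0.20, -0.59 ± 0.36 and -0.42 ± 0.21. Spint2, a relative of Spint1, lay above at 0.71 ± 0.28, as did Ocln and Dsc2, which also join epithelial cells and were picked out after their values were seen. Cdh11, a cadherin of mesenchyme, read 1276, 681 and 1398 and then 2369, 1974 and 1704, a difference of 0.89 ± 0.39. Integrins and adhesion plaques had 3 and 1 of 23. Lum, a small proteoglycan of the matrix, lay lower at -1.21 ± 0.47, and Lama4, a laminin chain of vessels, higher at 0.91 ± 0.45. The list of lung and foregut endoderm had 4 above and 6 below of 32, beside 14 and 1 of 36 for mesenchyme.

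Of 6 tested markers of pharyngeal arch and thyroid, the more anterior foregut, 3 were wholly below and 2 had a positive difference, with a median of -0.41. Ripply3, a repressor of the pharyngeal pouches, read 1776, 746 and 971 and then 472, 402 and 256, a difference of -1.51 ± 0.32 or -1.98 without the narrow-range arrays. Tbx1, its T-box partner, read 358, 328 and 489.7 and then 262, 284 and 209, a difference of -0.58 ± 0.23. Hhex, of the thyroid and liver buds, differed by -0.83 ± 0.35, with 311, 921 and 356 at 16-20 somites, where replicate 2 was high, and by -0.36 without that array. The retinoic acid pathway had 4 of 19 genes wholly below and 1 above, but its median was 0.02 and 11 differences were positive. Aldh1a2, which makes retinoic acid, read 775, 341 and 746 and then 1456, 1720.4 and 757, a difference of 1.05 ± 0.39 or 0.36 without the narrow-range arrays, and its groups overlapped. Crabp1, which binds retinoic acid in the cytoplasm, read 1505, 851 and 1633 and then 300.4, 330.3 and 383, a difference of -1.85 ± 0.43, and its relative Crabp2 differed by -0.88 ± 0.28. Rdh10, which makes the precursor retinal, read 1553, 1937 and 2032 and then 1313, 1059 and 1099.8, a difference of -0.65 ± 0.21 or -0.72 without the narrow-range arrays.

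The 2 gut hormone genes wholly apart lay on opposite sides. Gcg, the precursor of glucagon and the glucagon-like peptides, read 59.6, 59.2 and 78.4 and then 197, 379 and 151, a difference of 1.46 ± 0.31. Pyy, made by the same kind of gut endocrine cell, read 354, 532 and 614 and then 180.2, 307 and 222, a difference of -0.998 ± 0.26 (adjusted p = 0.317, limma, against 0.254 for Gcg). Of 33 genes chosen for their known place in foregut and lung development, 21 were tested, 5 were wholly above (Bmp4, Gli1, Hhip, Isl1 and Tbx5), 2 wholly below (Ripply3 and Hhex) and 14 not apart. The latter include the endoderm factors Foxa1, Foxa2, Gata4 and Gata6 and the lung mesenchyme ligand Wnt2, which read 852, 1346 and 1187 and then 1012, 895 and 1124. A further 11 were under the filter, among them Nkx2-1, the first lung marker, which read 33.3, 10.6 and 49.5 and then 27.5, 26.0 and 7.20, as well as Shh and Fgf10, and 1 had no symbol on the array.

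Markers of neighbouring tissues were read beside these lists. Hepatic markers had 2 of 7 wholly below (28.6%) and a median of -1.03, and cardiac muscle 2 of 22 (9.09%) and -0.41, beside 10.2% of all tested genes wholly below. Without 16-20 somites replicate 2 these medians were -0.41 and -0.04, and without the narrow-range arrays -1.73 and -0.51. Ttr, the plasma carrier made by the liver bud, read 967, 21559 and 2185 and then 352, 892 and 520.2. Endothelial markers had 3 of 17 wholly above, neural crest 2 of 11, neural tube 2 of 17 and erythroid 1 of 10, with medians of 0.11, 0.16, 0.26 and 0.16. These shares of 17.6%, 18.2%, 11.8% and 10% rest on few genes and stand beside 11.2% of all tested genes. Neural crest and neural tube markers also had 1 each wholly below (9.09% and 5.88%, beside 10.2% of all tested genes). The neural crest marker below was Crabp1, at -1.85 ± 0.43. General mesenchyme markers were divided, 3 above and 3 below of 16, and foregut epithelium had 1 and 3 of 17. Of the remaining lists, macrophage markers had 1 of 3 below, somite 1 of 8 above, notochord 1 of 2 above, pancreas and gut hormone 1 above and 1 below of 9, and mesothelium 0 of 6 either way. The part of such cells in the lists above was not tested.

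The genes wholly above were longer on the chromosome than those wholly below. The genomic span from RefSeq, exons and introns together, had a median of 32.9 kb for genes wholly above, 13.0 kb for those wholly below and 22.1 kb for all tested genes. Genes were divided by span into 5 equal groups. In the shortest, with a median span of 4.22 kb, 6.93% were wholly above and 17.1% wholly below. In the longest, with a median of 109 kb, the shares were 16.4% and 5.60%, and the groups between them ran in order. On 26-30 somites replicate 3 alone the median difference from the 16-20 mean ran from -0.08 in the shortest group to 0.06 in the longest. Among the brighter genes, split at the median signal and the median span, 18.0% of the longer and 9.05% of the shorter ones were wholly above, and 7.08% and 16.9% wholly below. Among the dimmer genes the shares were 10.4% and 6.95% above and 7.15% and 9.77% below, in the same order. The median span was 3.35 kb for cytosolic ribosomal proteins, 7.61 kb for mitochondrial ribosomal proteins, 12.9 kb for the proteasome and 38.3 kb for chromatin genes. Foregut mesenchyme genes, mostly higher, had short spans with a median of 12.9 kb. Whether span or function goes with the difference was not tested.

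**Figure D4:**
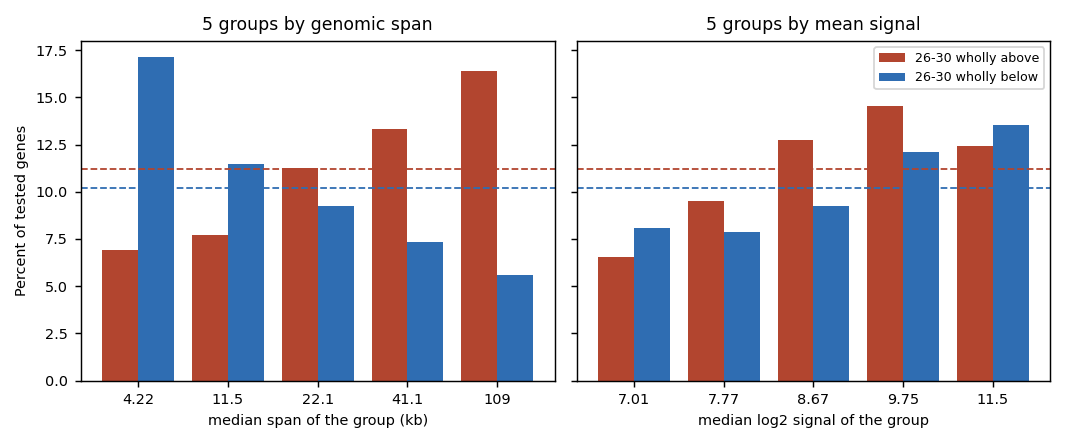
Percent of tested genes wholly above or wholly below at 26-30 somites in 5 equal groups by genomic span (left, median span in kb) and by mean signal (right, median log2 signal), with dashed lines at the percentages of all tested genes. From the shortest to the longest group the share above goes from 6.93% to 16.4% and the share below from 17.1% to 5.60%.

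The 21-25 somites arrays lay between the other stages in mean for 646 of 968 genes wholly above (66.7%) and 548 of 882 wholly below (62.1%). Of all tested genes this held for 38.9%. Choosing genes whose end stages are apart widens the room for a mean between them, so these percentages describe the genes and support nothing. Without the narrow-range arrays the percentages were 50.8% for genes above and 50.2% for genes below. The median place of the middle stage was 0.68 of the way from the 16-20 to the 26-30 mean for genes above and 0.73 for genes below. Over all tested genes it was 0.70, so both values were near that of all genes. By list, foregut mesenchyme genes above stood at 0.47, zinc finger genes at 0.56 and chromatin genes at 0.82. Cytosolic ribosomal genes below stood at 1.07 and proteasome genes at 1.19, where the middle mean was already past the later one. The narrow-range array of the middle stage read far under the other two for both lists, as given above for the proteasome, so these places rest on it in part. As single cases, Timm13 read 501, 1544 and 1673 at 21-25 somites, Zfpm2 528, 122 and 252, Gcg 246, 176 and 284 and Ripply3 668, 797 and 611. The first of the 3 middle arrays is narrow-range, the lowest of its stage for Timm13 and the highest for Zfpm2.

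**Figure D5:**
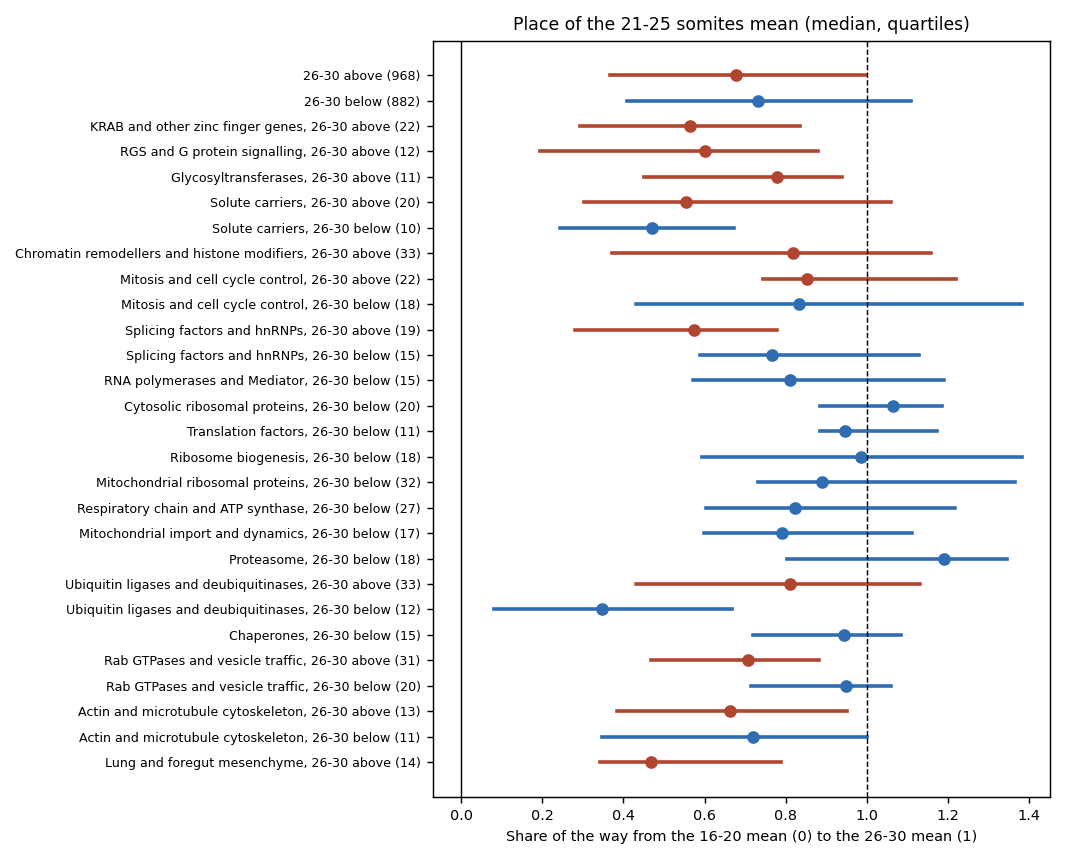
Place of the 21-25 somites mean on the way from the 16-20 mean (0) to the 26-30 mean (1), as median (point) and quartiles (line) over the genes wholly above (red) or below (blue), for all of them and for lists with at least 10 such genes. Foregut mesenchyme genes above lie at 0.47 and proteasome genes below at 1.19.

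Other probe sets of the same genes that passed the signal filter shared the direction in most cases. Of 567 further probe sets of genes wholly above, 401 (70.7%) had a positive difference and 129 (22.8%) were wholly above themselves. Of 394 further probe sets of genes wholly below, 252 (64.0%) were negative and 92 (23.4%) wholly below. For genes not apart, 59.6% of further probe sets had the sign of the first. Among the genes described above, Hspe1, Ndufb2, Park7, Pfdn5, Pdgfc, Bmi1, Efnb2 and Satb1 had 1 further probe set each that passed the filter, on the same side by 0.58 or more. Every further probe set past the filter of Dusp9, Hmga2, Foxp1 and Tcf4 had the sign of the first, with -0.62 and -1.05 for Dusp9 and 0.74 and 0.81 for Hmga2. A further probe set had the opposite sign for Mrps2, Brix1, Polr2f, Psmd4, Eef1d, Rac1, Casp9, Gas1, Zfp467, Pcdh18, Pdgfra, Id4, Arid4b, Enah and Lss, and apart from Eef1d and Enah, where another further probe set had the sign of the first, these genes rest on the brighter probe set alone.

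Several differences given above were at least 1.5 times smaller on the wide-range array alone. Among machinery genes this held for Mrps7 at -0.57, Ndufa8 at -0.68, Ndufb2 at -0.48, Eif3k at -0.54, Pfdn5 at -0.93, Ebna1bp2 at -0.53 and Brix1 at -0.39. Among the regulators and signals that lay higher it held for Rac1 at 0.79, Gabpa at 0.54, Tcf4 at 0.54, Foxn2 at 0.58, Foxf2 at 0.44, Sox18 at 0.64 and Sox7 at 0.19. It also held for Casp2 at 0.63, Casp9 at 0.63, Gcg at 0.95 and Spint2 at 0.36, and among the lower genes for Birc5 at -0.76, Psenen at -0.46, Ehmt2 at -0.31, Crabp2 at -0.42 and Lss at -0.34. Each of these kept its direction. Without 16-20 somites replicate 2 the differences of Bambi, Lum, Tpm2, Tbx2, Cdh11, Pdgfc and Sox18 were -0.39, -0.64, -0.67, 0.41, 0.57, 0.69 and 0.69, also smaller and on the same side. Bms1, Las1l, Uxt, Psma4, Dusp9, Rpa2, Ripply3, Adcy7 and Trp53inp1 differed about as much or more on the wide-range array, as their values above show.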

How the data were processed

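RNA of 9 wild-type mid-foregut pools, 3 per stage, was measured on 1-colour Affymetrix arrays. The intensity values are the authors' deposited MAS5 signals, and MAS5 is named in the submitters' processing notes; of its version and settings the sources used here say nothing. Each array's trimmed mean was 500.2 to 500.3, and the medians spanned 0.364 on the log2 scale, so no further normalization was applied. Of 22690 probe sets, 64 controls were left out, 20380 had 1 gene symbol, 691 several and 1555 none, and only those with 1 symbol were used. Genes were tested on log2(intensity + 26.2), the pseudocount being the 20th percentile of all signals, if their mean reached the 30th percentile, using a trended limma 3.58.1 fit of all 9 arrays under R 4.3.3 and Benjamini-Hochberg adjustment, an approach tested on simulated data. Members and lists were chosen with earlier results of these data known. Lists are described by counts and medians with no test, and 1 list is not reported here. Genes are named by 3 rules: up to 3 per list and direction with the smallest limma p among genes wholly apart, the 15 per direction with the widest gap, and 33 foregut genes whatever their values. Promoters and spans come from RefSeq (GRCm38.p6), which 20351 probe sets matched. The deposited values carry no read depth. Alternatives covered normalization, centring, pseudocount, filter, probe sets, arrays left out, array weights, a covariate and a replicate block. Genomic span, the groups of lists, and the alternatives for promoter letters, further probe sets and the place of the middle stage were added after seeing the data.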

Additional observations from a re-analysis of the deposited data

How the results depend on the processing

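Limits come from the design: 3 arrays a stage, of which 2 at 26-30 somites have a narrow range, leave the stage and the range only partly separable, and MAS5 signals of dim probe sets lie close to background. limma called 731 genes with array weights, 4 with only the 6 arrays of the compared stages, 1 with the 99th percentile of each array as a covariate, and 0 or 1 when any single array was left out, 1 without 16-20 somites replicate 1 and 1 without 26-30 somites replicate 3. The deviations of same-numbered arrays correlated at 0.004, 0.002 and -0.13, and those of differently numbered arrays at -0.11 to 0.12. These values cannot tell whether a replicate number marks a shared litter or day, and with the replicate block limma called 0. It also called 0 under the other settings of scale, filter and pseudocount, without a trend and without the narrow-range arrays. Of the 111 genes whose differences are given, 86 passed with array weights, which were highest for the narrow-range 26-30 somites replicate 1 (3.38). Genes named for a small p or a wide gap were picked on these same arrays, so the 86 are no further support. Of the 111, 2 changed sign under any setting: with the mean of all probe sets Brix1 was 0.066 and Kdm5d -0.14.

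With fewer arrays more genes lie apart by construction. Without the narrow-range arrays 2081 genes were wholly above and 2191 below, and leaving out single arrays gave 1114 to 1902 above and 1030 to 1805 below. The largest counts came without 26-30 somites replicate 3 above and without 16-20 somites replicate 1 below. None of the 15 lists with a median of 0.25 or more either way changed sign in 210 alternative values. Without the narrow-range arrays the medians were 0.090 for chromatin, 0.26 for mesenchyme, -0.18 for cytosolic ribosomal proteins, -0.22 for ribosome biogenesis, -0.24 for mitochondrial ribosomal proteins, -0.13 for the respiratory chain and -0.25 for the proteasome. With the mean of all probe sets they were 0.15 for BMP and TGF-beta, -0.20 for ribosome biogenesis and -0.21 for the proteasome, and with no filter 0.16 for BMP and TGF-beta. Leaving out single arrays gave -0.36 to -0.24 for ribosome biogenesis, -0.29 to -0.17 for mitochondrial import and dynamics, and -0.33 to -0.28 for the proteasome.

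The middle stage lay between for 50.8% of genes above and 50.2% below without the narrow-range arrays, for 58.2% below with the filter at the 50th percentile, and for 60.3% to 67.5% above and 56.5% to 66.6% below when single arrays were left out. The ETS core stood in 17.3% above and 24.1% below without the narrow-range arrays. Among genes below it stood in 24.0% with no filter, 35.7% with the filter at the 50th percentile and 24.5% to 29.5% without single arrays. Further probe sets of genes above had the same sign in 65.7% to 71.0%. The causes of these shifts were not tested. Protein length was not run, since no protein table was used here.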

Other observations

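The Y-linked genes Eif2s3y, Kdm5d and Uty were wholly above at 26-30 somites. Uty read 83.0, 133 and 81.5 at 16-20 somites, 112, 86.6 and 79.5 at 21-25 somites and 197, 173 and 175 at 26-30 somites. Kdm5d read 90.3, 143 and 85.8 and then 278, 232 and 177, a difference of 0.95 ± 0.27 on the log2 scale, but its further probe sets gave -0.49 and -0.89 and the mean of all its probe sets -0.14. Eif2s3y read 313, 312 and 182 and then 582, 462 and 404. Xist, made from the inactive X chromosome, was not apart, with 606, 3064 and 2186 at 16-20 and 1583, 3010.3 and 1228 at 26-30 somites. The labels give no sex for the pooled embryos, and Kdm5d and Eif2s3y are members of the chromatin and translation factor lists.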
